A study of Mus musculus with 101 samples.

Results

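The 33 genes described here are cell cycle genes, taken as a fixed list of symbols from the 24060 entries of each deposited table. The list was chosen with earlier results of these data known. By role they comprise 11 replication genes (Mcm2 to Mcm7, Pcna, Rrm1, Rrm2, Tk1 and Tyms), 14 genes of the G2 phase and mitosis (Top2a, Mki67, Cdk1, Ccnb1, Ccnb2, Ccna2, Bub1, Bub1b, Aurka, Aurkb, Plk1, Birc5, Cdc20 and Cenpf), 6 genes that control the passage through G1 (Ccne1, Ccnd1, Ccnd2, Cdk2, Cdk4 and E2f1) and 2 inhibitors of cyclin-dependent kinases (Cdkn1a and Cdkn1b). They were followed in 101 polyA RNA libraries from C57 mice given one intraperitoneal injection of LPS (lipopolysaccharide, a bacterial cell wall component that provokes systemic inflammation) at 5 mg/kg, or of PBS. Prefrontal cortex (PFC) and visual cortex (VCX) were taken 1, 2 or 14 days later. From each homogenate came an IP library, made from ribosome-bound RNA pulled down with an antibody against the hemagglutinin (HA) tag that the ribosomes of astrocytes carry, and an input library, made from the cleared lysate of all cells. There were 47 IP and 47 input libraries of both sexes in 24 groups, with 4 libraries per group except for 3 in IP PFC day 2 LPS and in input VCX day 2 LPS. A further 7 whole-tissue libraries, 3 LPS and 4 PBS, came from PFC of female mice at day 1. The promoter or driver line that placed the tag in astrocytes is not given in the sources used here, and all IP and input groups, PBS included, come from animals with the tag. The labels do not say that each library of a group came from its own animal, so p-values measure the spread between libraries. Replicate numbers below follow the order of deposit and pair no samples.

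A dividing cell copies its DNA in S phase and segregates it in mitosis. Cyclin D with Cdk4, and cyclin E with Cdk2, release E2F transcription factors from the retinoblastoma protein, and E2F then drives genes for nucleotide supply (Rrm1, Rrm2, Tk1, Tyms), the MCM helicase and the sliding clamp Pcna. Later in the cycle a second wave of genes, held down in resting cells by the DREAM complex, supplies the mitotic kinases, cyclins A and B, the spindle checkpoint and topoisomerase II alpha. In the adult cortex neurons do not divide, while microglia, oligodendrocyte precursors, endothelial cells and, after injury, some astrocytes can. Systemic LPS is known to activate microglia and brain endothelium.

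The 2 waves carry different promoter letters, and the promoters of 5 genes on which the results turn are printed here with those letters in capitals. They come from RefSeq on GRCm38.p6, run 5′ to 3′ on the strand of the gene from 250 bases before to 50 bases after the start, and were matched by symbol for 28 of the 33 genes (30 promoters, since some genes have more than 1 start). Aurkb, Ccna2, Ccnd1, Ccnd2 and Mcm4 had no entry. Capitals mark CCAAT (the box bound by NF-Y), TTTGAA (a CHR element of late cell cycle genes) and GCGGGAA (a core of E2F sites), searched on both strands, so that a match on the other strand is in capitals as its reverse complement. Mki67 lies at chr7:135716330-135716629 (minus strand), Top2a at chr11:99024140-99024439 (minus), Cdk1 at chr10:69352863-69353162 (minus), Bub1b at chr2:118597961-118598260 (plus) and Mcm3 at chr1:20820263-20820562 (minus).
Mki67: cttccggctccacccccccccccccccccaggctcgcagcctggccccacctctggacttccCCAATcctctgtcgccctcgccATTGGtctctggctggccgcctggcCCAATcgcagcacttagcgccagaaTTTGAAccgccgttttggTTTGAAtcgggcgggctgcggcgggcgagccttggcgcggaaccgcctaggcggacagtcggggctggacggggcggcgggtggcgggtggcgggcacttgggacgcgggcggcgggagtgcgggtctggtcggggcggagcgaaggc
Top2a: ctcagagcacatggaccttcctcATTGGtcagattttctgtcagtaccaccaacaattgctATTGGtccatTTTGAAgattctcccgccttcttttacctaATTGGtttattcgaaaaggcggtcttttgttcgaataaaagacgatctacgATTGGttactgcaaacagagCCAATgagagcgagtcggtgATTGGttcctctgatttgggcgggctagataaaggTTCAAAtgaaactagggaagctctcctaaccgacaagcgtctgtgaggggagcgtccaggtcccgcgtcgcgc
Cdk1: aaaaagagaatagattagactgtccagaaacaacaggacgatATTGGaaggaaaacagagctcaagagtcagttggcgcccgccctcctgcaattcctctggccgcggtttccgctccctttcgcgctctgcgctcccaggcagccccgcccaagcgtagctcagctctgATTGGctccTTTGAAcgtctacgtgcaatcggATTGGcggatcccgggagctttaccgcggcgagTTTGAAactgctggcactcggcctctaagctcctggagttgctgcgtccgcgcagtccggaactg
Bub1b: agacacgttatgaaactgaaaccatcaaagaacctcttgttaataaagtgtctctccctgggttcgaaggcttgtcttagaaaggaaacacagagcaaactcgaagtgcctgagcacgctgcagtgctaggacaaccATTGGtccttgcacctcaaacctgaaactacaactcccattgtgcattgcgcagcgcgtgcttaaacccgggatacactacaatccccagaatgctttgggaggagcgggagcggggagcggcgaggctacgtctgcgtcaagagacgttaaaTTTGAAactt
Mcm3: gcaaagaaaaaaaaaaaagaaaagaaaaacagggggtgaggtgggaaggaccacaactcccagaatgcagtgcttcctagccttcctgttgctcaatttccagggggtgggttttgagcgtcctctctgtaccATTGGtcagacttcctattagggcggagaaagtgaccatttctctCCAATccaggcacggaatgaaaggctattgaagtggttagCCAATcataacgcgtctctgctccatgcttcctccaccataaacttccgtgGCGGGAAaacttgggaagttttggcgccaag
CCAAT and TTTGAA both stood in the first 4 of these sequences, which belong to mitosis genes, whereas the Mcm3 sequence held CCAAT and GCGGGAA but not TTTGAA. Among the mitosis genes with a promoter, 9 of 12 held both CCAAT and TTTGAA and 0 of 12 held GCGGGAA. Among the replication genes, 8 of 10 held CCAAT, 1 of 10 held TTTGAA and 3 of 10 held GCGGGAA. Of all 32851 promoters in the RefSeq set, 37.41% held CCAAT, 17.89% TTTGAA, 6.953% both of these and 4.6% GCGGGAA. A match describes the letters in this window and does not show binding.

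Depth, recovered from the deposited values as whole reads, in M (mega) reads, was 43.84 to 72.94 M in IP and 35.01 to 50.87 M in input libraries at day 1, 20.67 to 50.78 M in IP and 13.19 to 39.63 M in input at day 2, and 12.46 to 55.09 M in IP and 4.21 to 35.9 M in input at day 14. Whole-tissue libraries held 35.77 to 49.48 M. The summed level of 8 astrocyte markers was 7301 to 9347 FPKM (reads per kilobase of gene model and mega of mapped reads) in IP libraries, against 422 to 758 FPKM in input libraries, and that of 8 neuron markers was 81.8 to 305 FPKM in IP and 2500 to 3274 FPKM in input. The IP thus carried its labelled cell type, with some RNA of others. One library stood apart. Whole-tissue PBS replicate 3 had a summed neutrophil and monocyte marker level of 10.6 FPKM and a microglia and macrophage sum of 476 FPKM, where the LPS libraries had 20.2 to 27 and 496 to 553 FPKM and the other 3 PBS libraries 0.671 to 3.27 and 254 to 299 FPKM. It is also 1 of 2 PBS libraries whose column name in the deposited file differs from the library's title, so whole-tissue results are given with and without it. Replicate 3 was picked after seeing the data, and the other library with a differing name was kept. Leaving out a PBS library near the LPS levels widens the gap between the groups. Whether its treatment label is right is not known.

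In PBS animals most genes of G1 control and replication had higher levels than those of mitosis, though the roles overlapped. Over the 24 PBS IP libraries the highest levels were those of Cdkn1b (inhibitor of cyclin-dependent kinases) at 34.8 ± 7.77 FPKM, Cdk4 at 33.5 ± 2.41, Ccnd2 (cyclin D2) at 33.2 ± 6.61, Ccnd1 (cyclin D1) at 29.7 ± 9.66 and Pcna at 26.03 ± 4.04 FPKM (mean ± SD). These first 5 do not differ beyond their spread. Rrm1, the large subunit of ribonucleotide reductase, followed at 10.2 ± 0.807 FPKM and Mcm4, a helicase subunit, at 7.58 ± 0.826 FPKM. Each of the 14 mitosis genes averaged between 0.0322 FPKM (Bub1, a spindle checkpoint kinase) and 0.346 FPKM (Top2a). In the 24 PBS input libraries Pcna (25.95 ± 6.92 FPKM), Cdk4 (23.99 ± 2.28), Cdkn1b (15.5 ± 2.81), Ccnd1 (11.3 ± 2.04), Ccnd2 (9.11 ± 2.01) and Ccne1 (cyclin E1, 8.23 ± 0.878) led, and the mitosis genes averaged between 0.0477 FPKM (Bub1) and 0.747 FPKM (Bub1b). The replication gene Tk1 lay among the mitosis genes in both fractions, at rank 32 of 33 in IP. Low levels meant few reads: Tk1, thymidine kinase of the salvage pathway, had a median of 2 reads in IP and 5 in input PBS libraries, so folds of such genes are understated by the 0.1 FPKM added before taking logs.

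Several genes were richer in the IP than in the input. IP was compared with input in the 2 areas together with limma on log2(FPKM + 0.1) after TMM scaling (trimmed mean of M values), and a gene was called at an adjusted p (Benjamini-Hochberg over all genes) under 0.05. In PBS animals 15 members were higher and 9 lower in IP of 32 tested at day 1, when 85.4% of all tested genes were called, 13 and 9 of 33 at day 2 (84.2%) and 14 and 8 of 32 at day 14 (84.5%). The members' share was below that of all genes on each day. Mcm3, a helicase subunit, was higher in IP by 2.58 at day 1 (SE 0.19, adjusted p = 1.2e-13), 2.57 at day 2 and 2.56 at day 14 on the log2 scale. Ccnd2 was higher by 2.40, 2.61 and 2.47, Ccnd1 by 1.98, 2.09 and 1.82, Rrm2 (the small reductase subunit) by 1.87, 1.90 and 1.82, and Cdkn1b by 1.90, 1.62 and 1.85. On the other side, Cdkn1a was lower in IP by 2.25 at day 1 (log2 change -2.25, SE 0.23, adjusted p = 4.65e-10), Ccne1 by about as much on all 3 days (-2.04, -2.20 and -2.22), and Mcm5 less so (-1.15, -1.24 and -1.06). Mcm5 and Mcm6 were thus lower in IP while Mcm3 and Mcm4 were higher, although the 4 are subunits of 1 helicase. Of the mitosis genes, Ccnb2 (cyclin B2) and Birc5 (survivin) were lower in IP on all 3 days.
The scaling matters for small differences between fractions. TMM left the median of all genes between -0.11 and -0.10 in PBS and the deposited values without further scaling between -0.65 and -0.62, a shift of -0.51 to -0.55. Without it, Mcm7 turned from higher to lower in IP, called on both sides, at day 1 (0.32 with TMM, -0.29 without), day 2 (0.17 and -0.44) and day 14 (0.35 and -0.29). The directions of Mcm2, and of Pcna at days 2 and 14, also turned.

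**Figure D1:**
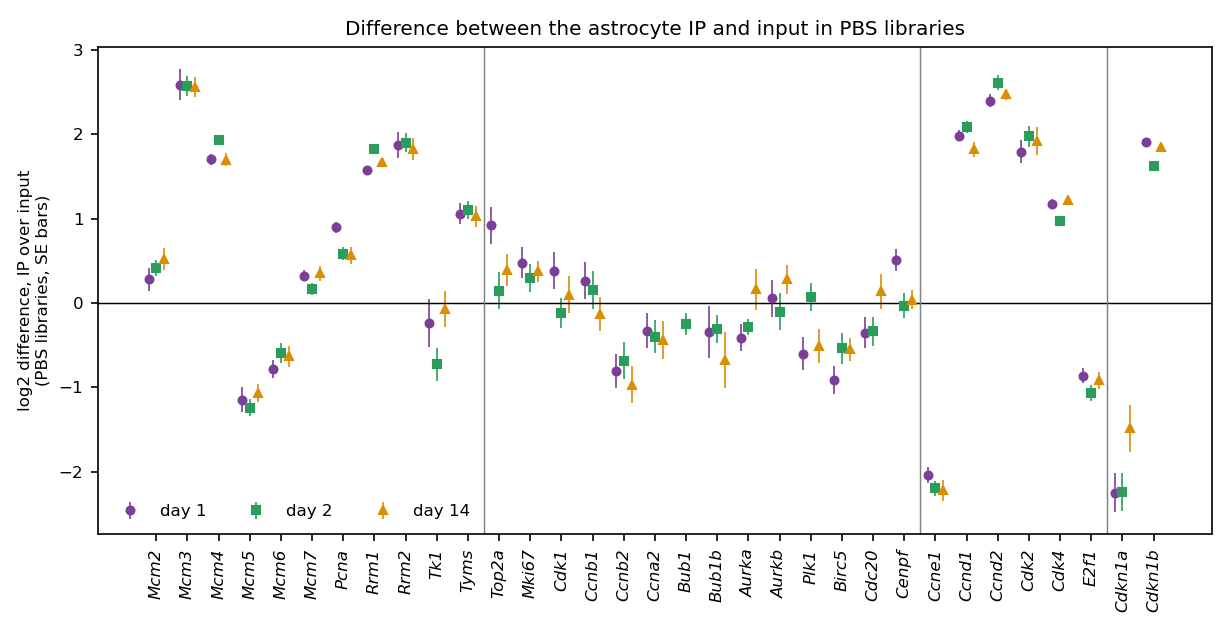
Log2 difference between IP and input for each cell cycle gene in PBS animals at days 1, 2 and 14 (both areas together, limma, log2(FPKM + 0.1) scale, bars are SE), with vertical lines between the replication, mitosis, G1 control and inhibitor genes. Mcm3, Ccnd1, Ccnd2, Rrm2 and Cdkn1b lie far above 0 on each day, and Mcm5, Ccne1 and Cdkn1a below it.

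At day 1 after LPS 2 of the 6 G1 control genes and 1 of the 2 inhibitors changed in the astrocyte IP of both areas. Cdkn1a, the inhibitor induced by p53 and by stress signals, rose in IP of both areas, as did Ccnd1, and E2f1, the transcription factor at the G1 to S step, fell in both. In IP PFC 4 members rose and 2 fell of 32 tested, where 19.4% of all tested genes were called, and in IP VCX 3 rose and 1 fell of 32 (20% of all genes). The members' share, near 1 in 5 or below, was not above that of all genes. In these bulk libraries more cells of a type and more RNA per cell cannot be told apart.
Cdkn1a measured 2.27, 0.752, 1.98 and 0.888 FPKM in IP PFC LPS libraries, against 0.261, 0.572, 0.116 and 0.360 FPKM in PBS libraries. Every LPS value was above every PBS value (log2 change 1.85, SE 0.40, adjusted p = 0.00406, 3.61-fold). In IP VCX it measured 0.784, 1.58, 0.528 and 0.955 FPKM in LPS and 0.292, 0.365, 0.325 and 0.192 FPKM in PBS libraries, again without overlap (1.36, SE 0.40, adjusted p = 0.0258). The input showed no such change in PFC, with 2.94, 2.67, 2.40 and 2.096 FPKM in LPS and 3.07, 3.75, 2.66 and 2.46 FPKM in PBS libraries (log2 change -0.26, adjusted p = 0.374). Input levels of Cdkn1a were above those of IP in PBS, so the IP of LPS animals came closer to the lysate: the IP to input difference was -0.53 in LPS and -2.25 in PBS animals.
Ccnd1, which pairs with Cdk4 in G1, measured 54.4, 49.1, 56.3 and 45.8 FPKM in IP PFC LPS libraries, against 39.5, 37.8, 39.8 and 38.5 FPKM in PBS libraries (0.40, SE 0.085, adjusted p = 0.00338, 1.32-fold). In IP VCX the values were 28.4, 33.3, 25.5 and 28.8 FPKM in LPS and 22.2, 20.3, 20.4 and 20.9 FPKM in PBS libraries (0.45, SE 0.085, adjusted p = 0.00117, 1.37-fold). The groups did not overlap in either area, and both calls held in every alternative run. E2f1 measured 0.532, 0.537, 0.745 and 0.565 FPKM in IP PFC LPS and 0.959, 0.836, 0.785 and 0.817 FPKM in PBS libraries (-0.46, SE 0.14, adjusted p = 0.0305). In IP VCX it had 0.652, 0.518, 0.548 and 0.611 FPKM in LPS and 0.925, 0.868, 0.7499 and 0.746 FPKM in PBS libraries (-0.44, SE 0.14, adjusted p = 0.0357). All LPS values lay below all PBS values in both areas. Replicates were left out by number, that is, replicate n of LPS or of PBS from all groups of a fit at once (both areas in a fit of LPS against PBS), so that a lost call is not tied to 1 library. The E2f1 call was lost in PFC without LPS or PBS replicates 1, 2 or 4 (adjusted p up to 0.111) and in VCX without LPS replicates 2, 3 or 4 or PBS replicates 1 or 2 (up to 0.114), and that of Cdkn1a in VCX without LPS replicates 2 or 4 or PBS replicates 1 or 4 (up to 0.086) and by limma-voom on the recovered reads. With only the 2 groups compared in the fit, 3 members instead of 6 were called in PFC and 2 instead of 4 in VCX.

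Replication genes at day 1 moved less, and their IP and input values went apart for one of them. In IP PFC, Pcna, the sliding clamp of DNA polymerase, had 23.45, 25.02, 24.04 and 24.66 FPKM in LPS and 19.3, 22.2, 21.8 and 20.2 FPKM in PBS libraries (0.22, SE 0.062, adjusted p = 0.0201). Mcm4 had 7.78, 8.46, 7.95 and 6.81 FPKM in LPS and 6.42, 6.50, 6.53 and 6.79 FPKM in PBS libraries (0.23, SE 0.076, adjusted p = 0.0402). Both rose without overlap, Mcm4 by a narrow margin. In IP VCX, Mcm7 rose, with 4.07, 3.48, 3.29 and 3.77 FPKM in LPS and 2.77, 2.70, 3.14 and 2.72 FPKM in PBS libraries (0.35, SE 0.086, adjusted p = 0.00842).
Mcm3 fell in IP PFC, with 2.03, 1.59, 2.84 and 1.78 FPKM in LPS and 2.71, 2.83, 2.66 and 2.96 FPKM in PBS libraries (-0.45, SE 0.14, adjusted p = 0.0342). The groups overlapped through LPS replicate 3. In IP VCX it had 2.34, 2.29, 1.78 and 1.92 FPKM in LPS and 2.54, 2.39, 2.89 and 3.17 FPKM in PBS libraries, a change of -0.39 (limma adjusted p = 0.0643) that limma did not call and limma-voom did. In the input the values went the other way: 1.29, 1.06, 2.28 and 1.31 FPKM in VCX LPS and 0.598, 0.731, 0.681 and 0.288 FPKM in PBS libraries (1.22, SE 0.33, adjusted p = 0.0199, 2.33-fold), a rise without overlap. Input PFC had 3.32, 0.912, 1.67 and 0.978 FPKM in LPS and 0.396, 0.887, 0.748 and 0.795 FPKM in PBS libraries (1.01, adjusted p = 0.0529, not called). The difference between the fractions was itself tested, and the LPS effect on Mcm3 was lower in IP than in input (log2 difference -1.496, SE 0.26, adjusted p = 0.0001825). Mcm3 was richer in IP than in input also in LPS animals (1.09, adjusted p = 4.13e-06).
Besides Mcm3, limma called 1 other member in the input at day 1. Cdkn1b, the inhibitor that holds resting cells in G1, rose in input VCX, with 19.9, 18.6, 18.6 and 19.6 FPKM in LPS and 16.1, 15.4, 15.7 and 16.5 FPKM in PBS libraries (0.25, SE 0.058, adjusted p = 0.00625). These 2 of 31 members compare with 15.1% of all genes. In input VCX limma-voom called Cdkn1b and Ccnd1 and not Mcm3. In input PFC limma called 0 of 31 (14.6% of all genes), with 6 at an unadjusted p under 0.05 and 2, Mcm4 and Mki67, by limma-voom on the recovered reads. The share of all genes was not computed for counts by unadjusted p or by limma-voom, here or below. The replication genes had a median log2 change of 0.22 in input PFC (-0.004 over all genes) and 0.17 in input VCX (0 over all genes), while the mitosis genes had -0.26 and -0.23, none of them called by limma and Mki67 called by limma-voom in PFC. Mki67 was lower in LPS there, with 24, 37, 57 and 13 reads in LPS and 89, 58, 35 and 56 reads in PBS libraries. For Cdk1 and Mki67 the PBS libraries at or above the filter were too few alone, so these genes passed it only with LPS libraries counted as well. Without Cdk1 and Mki67 the mitosis medians were -0.26 and -0.30. Top2a, for example, had 0.0439 to 0.285 FPKM in input PFC LPS and 0.164 to 0.284 FPKM in PBS libraries, and 0.0953 to 0.223 FPKM in input VCX LPS and 0.231 to 0.488 FPKM in PBS libraries, not called in either. Calls of 4 replication changes were lost when some replicate numbers were left out. Pcna in IP PFC was lost without LPS replicates 1 or 4 or PBS replicates 1 or 3 (adjusted p up to 0.0704), Mcm4 without LPS or PBS replicates 1, 2 or 3 (up to 0.150), Mcm3 in IP PFC without LPS or PBS replicates 1, 2 or 4 (up to 0.133) and Mcm3 in input VCX without LPS or PBS replicates 3 or 4 (up to 0.0918).

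**Figure D2:**
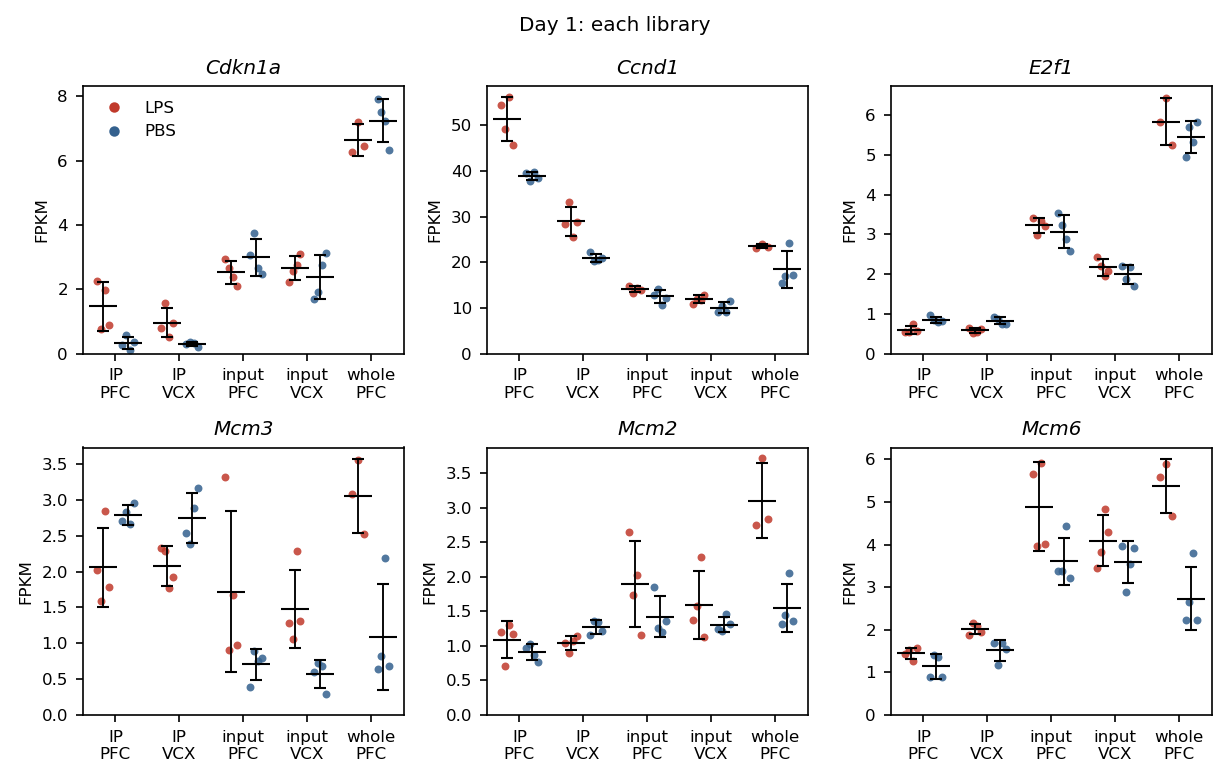
FPKM of Cdkn1a, Ccnd1, E2f1, Mcm3, Mcm2 and Mcm6 in day-1 libraries, LPS left of PBS, with each point 1 library and lines for the mean ± SD. Cdkn1a and Ccnd1 are higher and E2f1 lower in the LPS libraries of both IP areas without overlap, and 1 whole-tissue PBS library, replicate 3, lies above the other PBS libraries for the helicase genes.

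In whole PFC at day 1 whether limma called the 6 helicase genes depended on PBS replicate 3. Each of the 6 was higher in every LPS library than in every PBS library, but the share of all genes that separated in this way was not computed. Mcm2 measured 2.75, 3.72 and 2.84 FPKM in LPS, against 1.32, 1.44, 2.06 and 1.36 FPKM in PBS libraries. Mcm5 had 3.11, 3.94 and 2.41 FPKM in LPS and 1.22, 1.395, 1.87 and 1.24 FPKM in PBS libraries. Mcm6 had 5.59, 5.90 and 4.67 FPKM in LPS and 2.24, 2.66, 3.81 and 2.23 FPKM in PBS libraries. For each of the 3 genes every LPS library was above every PBS library, and the highest PBS value was that of replicate 3. For Mcm3, with 3.09, 3.55 and 2.53 FPKM in LPS and 0.643, 0.819, 2.19 and 0.691 FPKM in PBS libraries, the same replicate came nearest to the LPS group, still without overlap. Tk1 had 0.945, 1.56 and 0.767 FPKM in LPS and 0.543, 0.535, 0.633 and 0.433 FPKM in PBS libraries, without overlap.
With all 7 libraries limma called 0 of 31 members, where 0.0118% of all genes were called. Of the members 13 had an unadjusted p under 0.05, 12 of them higher in LPS, and limma-voom called 5 (Mcm2, Mcm4, Mcm5, Mcm6 and Mcm7). The shares of all genes that go with these counts were not computed, so the counts cannot be set against them. The adjusted p was 0.12 for Mcm2 (log2 change 0.94, SE 0.17) and for Mcm5 (1.05, SE 0.19). Without PBS replicate 3, 9 of 31 members rose and 0 fell, where 8.81% of all genes were called. They were 8 of the 11 replication genes, namely Mcm3 (1.92, adjusted p = 1.75e-05), Mcm5 (1.18), Mcm6 (1.12), Mcm2 (1.08), Tk1 (0.91), Mcm4 (0.51), Mcm7 (0.34) and Pcna (0.25), and Ccnd1 (0.49), with adjusted p between 1.75e-05 and 0.0368. None of the 12 tested mitosis genes was called with or without that library. The median log2 change of the replication genes was 0.45 with all libraries (0.003 over all genes), positive in 11 of 11, and 0.51 without PBS replicate 3 (0.001), and that of the mitosis genes was 0.083 and 0.071. Aurkb, Ccnb1 and Cdk1 passed the filter only with LPS libraries counted, since too few PBS libraries alone reached it. The other 9 tested mitosis genes had a median of -0.026 with all libraries, positive in 4 of 9. Ccnd1 had 23.1, 23.97 and 23.4 FPKM in LPS and 15.4, 16.9, 24.3 and 17.1 FPKM in PBS libraries, and the groups overlapped through replicate 3 alone. PBS replicate 3 had been picked in part for its microglia and neutrophil marker levels, so marker counts without it are not independent of that choice. With all 7 libraries limma called 2 genes in all. Without PBS replicate 3, 8 of 10 microglia and macrophage markers were higher and 1 was lower in LPS. Of the neutrophil and monocyte markers 6 of 7 tested and of the endothelial markers 6 of 8 were higher. The part of these cells in the result was not tested.

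At day 2 most of the mitosis genes rose in input PFC and 5 of them also in input VCX. In input PFC 15 of 33 members rose and 0 fell, where 3.98% of all tested genes were called in either direction and 3.71% as higher, and in input VCX 6 of 33 rose and 0 fell (2.27% and 2.06%). All 6 of the VCX genes (Bub1b, Cdk1, Mki67, Plk1, Tk1 and Top2a) were among the 15 of PFC. Bub1 passed the filter of 0.1 FPKM only with its LPS libraries, and of the other 13 mitosis genes 12 rose in input PFC, with a median log2 change of 1.25 (-0.002 over all genes). Of 11 replication genes 2 rose, with a median of 0.16, and of 6 G1 control genes 0, with a median of 0.001. In input VCX 5 of these 13 mitosis genes rose with a median of 0.93 (0.001 over all genes) and 1 of 11 replication genes with a median of 0.10.
Top2a, topoisomerase II alpha, which untangles sister chromatids, measured 1.13, 1.59, 1.38 and 1.70 FPKM in input PFC LPS libraries, against 0.251, 0.455, 0.427 and 0.285 FPKM in PBS libraries (log2 change 1.77, SE 0.22, adjusted p = 0.000197, 3.40-fold). In input VCX it had 1.34, 0.854 and 1.44 FPKM in LPS and 0.390, 0.261, 0.374 and 0.197 FPKM in PBS libraries (1.67, SE 0.24, adjusted p = 0.00146). The lowest LPS library was above the highest PBS library in both areas. Mki67, whose protein coats mitotic chromosomes and is the usual marker of cycling cells, had 0.286, 0.5256, 0.599 and 0.398 FPKM in input PFC LPS and 0.105, 0.172, 0.144 and 0.0874 FPKM in PBS libraries (1.25, SE 0.24, adjusted p = 0.00637). Input VCX gave 0.467, 0.175 and 0.399 FPKM in LPS and 0.0781, 0.0827, 0.0869 and 0.0718 FPKM in PBS libraries (1.22, SE 0.26, adjusted p = 0.0235). Again the groups did not overlap. Those values stand on 93 to 179 reads in PFC LPS and 32 to 56 reads in PFC PBS libraries.
Cdk1, the kinase that starts mitosis, had 0.564, 0.590, 0.703 and 0.869 FPKM in input PFC LPS and 0.0794, 0.168, 0.181 and 0.221 FPKM in PBS libraries (1.58, SE 0.23, adjusted p = 0.000644). The VCX input held 0.512, 0.318 and 0.640 FPKM in LPS and 0.0853, 0.133, 0.130 and 0.0399 FPKM in PBS libraries (1.53, SE 0.25, adjusted p = 0.003). The groups did not overlap. Bub1b, the checkpoint protein BubR1, had 2.03, 2.23, 1.42 and 1.66 FPKM in input PFC LPS and 0.887, 0.515, 0.558 and 0.743 FPKM in PBS libraries (1.31, SE 0.21, adjusted p = 0.00163). In VCX lysate the gene had 1.84, 2.01 and 1.70 FPKM in LPS and 1.06, 0.558, 0.496 and 0.643 FPKM in PBS libraries (1.35, SE 0.23, adjusted p = 0.00474). It was the mitosis gene with the highest level in PBS input and did not overlap between treatments.
Plk1, a kinase of mitotic entry, had 0.437, 0.685, 0.693 and 0.628 FPKM in input PFC LPS and 0.275, 0.277, 0.224 and 0.212 FPKM in PBS libraries (1.01, SE 0.20, adjusted p = 0.00747). Its input VCX values were 0.551, 0.413 and 0.630 FPKM in LPS and 0.246, 0.138, 0.260 and 0.294 FPKM in PBS libraries (0.91, SE 0.22, adjusted p = 0.0426). Tk1, the replication gene that moved with them, had 1.66, 0.735, 0.844 and 1.11 FPKM in input PFC LPS and 0.147, 0.141, 0.284 and 0.201 FPKM in PBS libraries (1.97, SE 0.26, adjusted p = 0.000323, 3.91-fold). It had the highest fold of the members. Input VCX libraries showed 0.478, 1.07 and 0.949 FPKM in LPS and 0.119, 0.111, 0.172 and 0.0834 FPKM in PBS libraries (2.05, SE 0.28, adjusted p = 0.00109, 4.13-fold).
In input PFC alone 9 further members were called, of which Ccnb1 (cyclin B1, the partner of Cdk1) had 0.322, 0.920, 0.627 and 0.463 FPKM in LPS and 0.120, 0.166, 0.157 and 0.0357 FPKM in PBS libraries (1.60, SE 0.36, adjusted p = 0.0193). Aurkb, the kinase of the chromosomal passenger complex, had 0.745, 0.484, 0.305 and 0.664 FPKM in LPS and 0.103, 0.0983, 0.199 and 0.0281 FPKM in PBS libraries (1.64, SE 0.35, adjusted p = 0.0128). Cdc20, the activator of the anaphase-promoting complex, rose by 1.26, Ccna2 (cyclin A2) by 1.19, Birc5 by 1.13, Ccnb2 by 1.08, Bub1 by 0.96, Aurka by 0.86 and the helicase gene Mcm6 by 0.57 on the log2 scale. Of these 9, only Ccnb2 overlapped between treatments, with 0.826 to 2.05 FPKM in LPS and 0.395 to 0.993 FPKM in PBS libraries. The 9 were taken because they were called, which favours groups without overlap, and the share of all genes without overlap was not computed. Among the fits of LPS against PBS, Bub1 passed the filter on low values in that of the input at day 2, through its LPS libraries, with 0.172 to 0.260 FPKM in LPS and 0.0524 to 0.0887 FPKM in PBS libraries. Cenpf, a kinetochore protein, was the mitosis gene not called (0.62, adjusted p = 0.345), with 0.0921 to 0.301 FPKM in LPS and 0.0676 to 0.123 FPKM in PBS libraries. That a gene was called in PFC and not in VCX does not show a difference between the areas: the LPS effect was not called as different for any member.
Summed over the 14 mitosis genes the level was 12.2 ± 1.9 FPKM in input PFC LPS and 4.27 ± 0.443 FPKM in PBS libraries (SD, n = 4 each), a ratio of 2.86. In input VCX it was 9.82 ± 2.04 FPKM in LPS (n = 3) and 4.50 ± 0.333 FPKM in PBS libraries (n = 4), a ratio of 2.18. The sum over the replication genes hardly moved, with ratios of 1.09 and 1.02. Leaving out replicates by number cost some calls in PFC: Aurkb without LPS replicate 1 (adjusted p = 0.085), Cdc20 without LPS replicate 3 (0.0598), Birc5 and Ccnb1 without LPS or PBS replicate 3 (up to 0.0876 and 0.109), Bub1 without LPS replicate 3 or PBS replicates 1 or 3 (up to 0.0876), Ccnb2 without LPS replicates 1, 2 or 3 or PBS replicates 1, 2 or 4 (up to 0.192) and Mcm6 without any replicate but LPS 3 (up to 0.204). In VCX, Bub1b was lost without LPS replicate 2 (0.0587), Mki67 without LPS replicates 1 or 3 or any PBS replicate (up to 0.111) and Plk1 without any replicate but PBS 4 (up to 0.231) and by limma-voom. With only the 2 groups compared, 2 instead of 6 members were called in VCX.

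**Figure D3:**
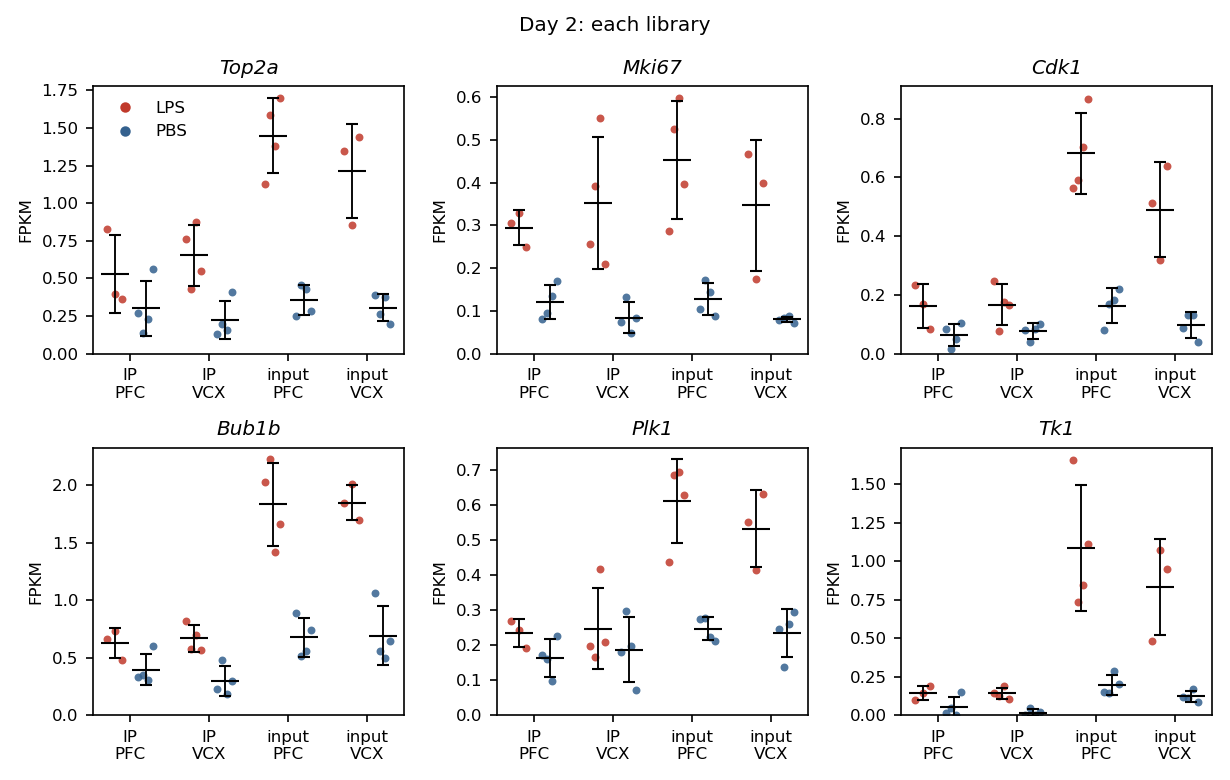
FPKM of Top2a, Mki67, Cdk1, Bub1b, Plk1 and Tk1 in day-2 libraries, LPS left of PBS, with each point 1 library and lines for the mean ± SD. In input PFC and VCX all LPS libraries lie above all PBS libraries for each of the 6 genes.

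In the astrocyte IP at day 2, Mki67 rose in both areas, and most of the other members were not called. In IP PFC 2 of 31 tested members rose and 0 fell (7.84% of all genes called), in IP VCX 6 of 31 rose and 0 fell (7.55%). Aurkb, Ccnb1, Cdk1 and Tk1 reached the filter of 0.1 FPKM through LPS libraries, with too few PBS libraries above it. Of the 27 tested members that passed it through PBS libraries alone, 1 rose in IP PFC and 5 in IP VCX. The 9 mitosis genes among these 27 had a median log2 change of 0.27 in IP PFC (-0.014 over all genes) and 0.67 in IP VCX (-0.01). Mki67, the member called in both areas, had 0.307, 0.329 and 0.249 FPKM in IP PFC LPS and 0.081, 0.0955, 0.135 and 0.171 FPKM in PBS libraries (0.89, SE 0.25, adjusted p = 0.0445). In IP VCX it had 0.257, 0.392, 0.552 and 0.210 FPKM in LPS and 0.0745, 0.132, 0.048 and 0.0823 FPKM in PBS libraries (1.25, SE 0.23, adjusted p = 0.00343). The groups did not overlap in either area. Aurkb in IP PFC had 0.332, 0.136 and 0.153 FPKM in LPS and 0.0407, 0.0223, 0.0718 and 0.081 FPKM in PBS libraries (1.00, SE 0.29, adjusted p = 0.0465), from 33, 11 and 15 reads in LPS and 4, 2, 6 and 7 reads in PBS libraries.
Aurkb passed the filter through its LPS libraries, since 1 of the 8 PBS libraries of the fit reached it, so its call is a description. The other rises in IP VCX were those of Top2a, Bub1b, Aurka, Tk1 and Mcm6. Top2a had 0.758, 0.429, 0.875 and 0.549 FPKM in LPS and 0.132, 0.197, 0.158 and 0.408 FPKM in PBS libraries (1.24, SE 0.35, adjusted p = 0.0463). Bub1b had 0.822, 0.578, 0.701 and 0.566 FPKM in LPS and 0.227, 0.476, 0.184 and 0.299 FPKM in PBS libraries (0.98, SE 0.23, adjusted p = 0.018). Aurka, the kinase of the spindle poles, had 0.496, 0.469, 0.359 and 0.441 FPKM in LPS and 0.285, 0.288, 0.245 and 0.261 FPKM in PBS libraries (0.54, SE 0.14, adjusted p = 0.0315). None of the 3 overlapped between treatments. Mcm6 had 2.15, 1.68, 1.20 and 1.42 FPKM in LPS and 0.992, 1.07, 0.7501 and 1.03 FPKM in PBS libraries (0.67, SE 0.17, adjusted p = 0.0291). Tk1 stood on 5, 7, 10 and 7 reads in LPS and 0, 3, 0 and 1 reads in PBS libraries (1.05, SE 0.27, adjusted p = 0.0258), and it too passed the filter through LPS libraries, with 1 of 8 PBS libraries at 0.1 FPKM. The sum over the mitosis genes was 3.57 ± 0.858 FPKM in IP PFC LPS (n = 3) and 2.42 ± 0.598 FPKM in PBS libraries (n = 4), a ratio of 1.48, and 4.40 ± 0.908 FPKM in IP VCX LPS and 2.09 ± 0.322 FPKM in PBS libraries (SD, n = 4 each), a ratio of 2.1.
Of these calls, Mki67 in IP VCX held in every alternative. In IP PFC, Mki67 was lost without LPS replicates 1 or 2 or PBS replicates 1, 2 or 3 (adjusted p up to 0.161) and Aurkb without LPS replicates 1 or 3 or PBS replicates 1, 2 or 3 (up to 0.265), and 0 members were called with only the 2 groups compared, with 0.5 FPKM added or with a filter of 0.5 FPKM. In IP VCX, Bub1b and Tk1 were lost without LPS or PBS replicates 1 or 3 (up to 0.0819 and 0.088), Aurka without any replicate but LPS 3 (up to 0.122), Mcm6 without any replicate but LPS 3 or 4 (up to 0.14) and Top2a without LPS replicates 1, 3 or 4 or PBS replicates 1, 2 or 3 (up to 0.180), and a filter of 0.5 FPKM left 2 members called instead of 6. Top2a and Aurka in IP VCX were not called by limma-voom.

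**Figure D4:**
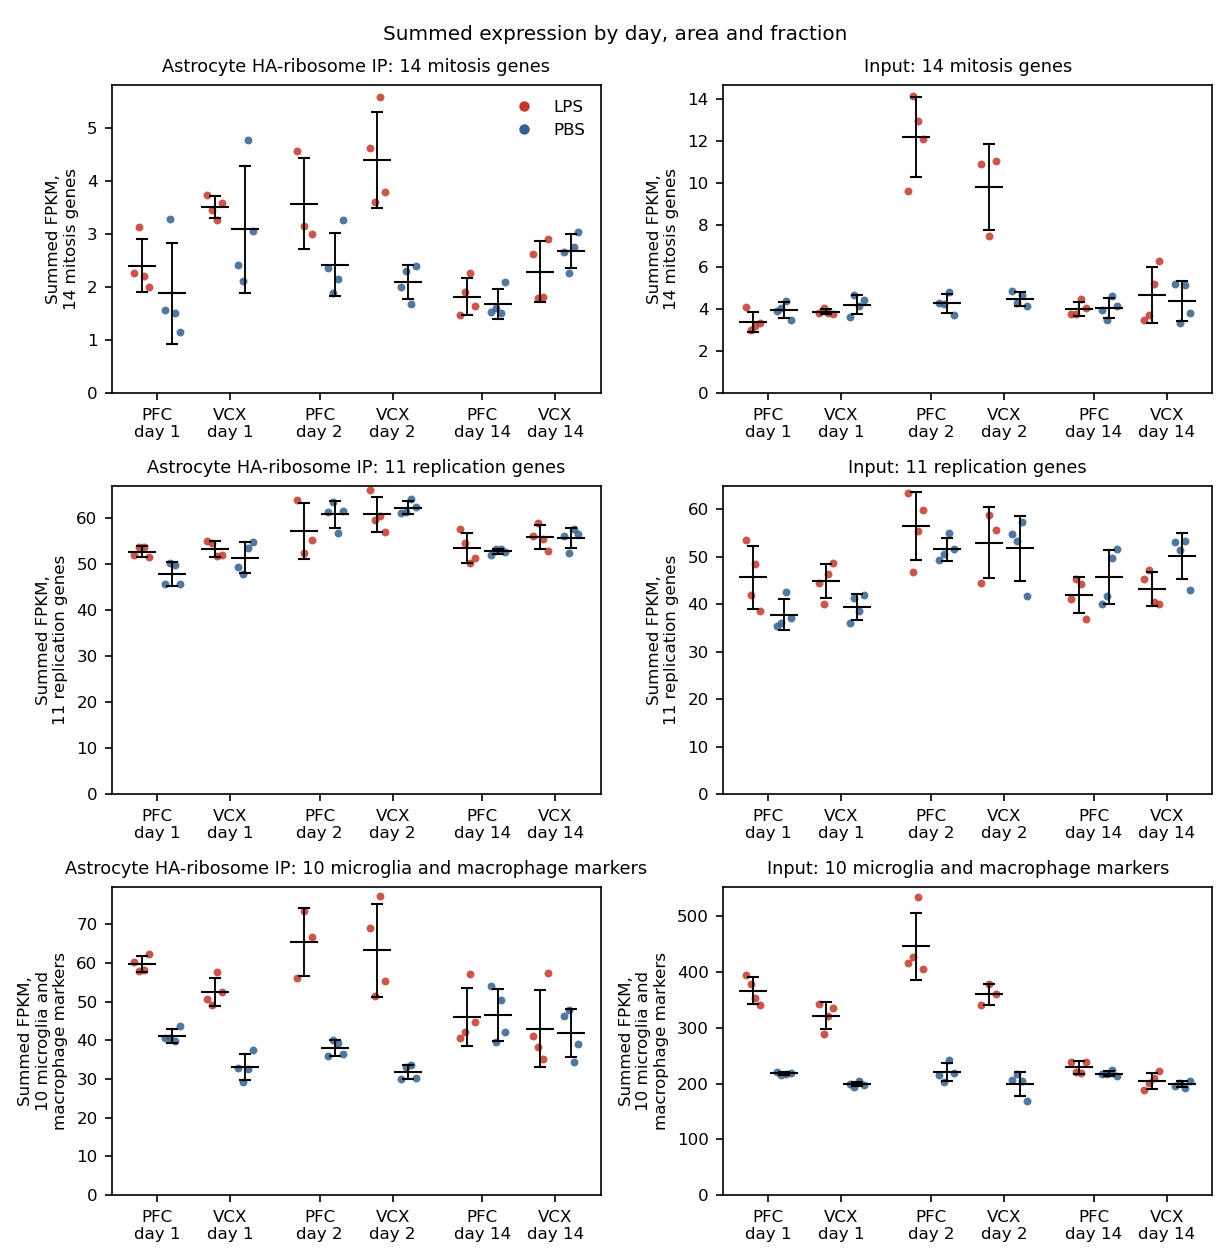
Summed FPKM per library of the 14 mitosis genes, the 11 replication genes and 10 microglia and macrophage markers, LPS left of PBS, at days 1, 2 and 14 in IP (left) and input (right), with lines for the mean ± SD. The mitosis sum of the input separates at day 2, at 7.46 to 14.1 FPKM in LPS and 3.74 to 4.86 FPKM in PBS libraries, and overlaps at day 14, while the marker sum of the input is already separate at day 1.

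Whether the fractions differed in their LPS effect was tested on the effect itself. At day 1 the LPS effect was higher in IP than in input for 5 members and lower for 3 of 32 (14% of all genes), namely higher for Cdkn1a (1.72), Top2a (0.97), Mki67 (0.86), Birc5 (0.85) and Ccnd1 (0.26) and lower for Mcm3 (-1.496), E2f1 (-0.52) and Cdkn1b (-0.24). Top2a, Mki67 and Birc5 were not called in either fraction at day 1, with positive changes in IP and negative ones in input. At day 2 limma called 0 of 33 members as different (3.45% of all genes), with 12 at an unadjusted p under 0.05, 1 of them higher in IP, a smallest adjusted p of 0.0511 and 1 call, Mcm3, by limma-voom. This count depended on the scaling and on the value added: 2 members were called with median-of-ratios factors, 4 without further scaling and 2 with 0.5 FPKM added. Within LPS animals at day 2, 12 members were higher and 17 lower in IP than in input (83.6% of all genes called), among the lower ones Tk1 (-1.56), Birc5 (-1.11), Ccnb2 (-1.01), Cdc20 (-0.91), Cdk1 (-0.89), Bub1b (-0.77) and Ccnb1 (-0.77). Top2a was -0.49 in LPS (adjusted p = 0.0574) and 0.14 in PBS animals at day 2, after 1.89 in LPS and 0.92 in PBS animals at day 1, both called. In LPS animals at day 1, 18 members were higher and 8 lower in IP of 32 tested (85.3% of all genes called), and at day 14, 15 and 10 of 32 (84.8%). At day 14 limma called the LPS effect as different between the fractions for 0 of 32 members (0% of all genes), with 4 at an unadjusted p under 0.05 and 0 by limma-voom.

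Markers of other cells moved with the day-2 rises. In input PFC the summed microglia and macrophage markers were 405 to 535 FPKM in LPS and 202 to 241 FPKM in PBS libraries, with 9 of 10 markers higher (Aif1 1.48, C1qa 1.43 and Itgam 1.37 on the log2 scale). Endothelial markers summed to 46.1 to 64.3 FPKM in LPS and 29.97 to 33.6 FPKM in PBS libraries (6 of 8 higher), and neutrophil and monocyte markers to 9.65 to 17.6 FPKM in LPS and 1.52 to 3.004 FPKM in PBS libraries (5 of 8 higher, S100a8 by 2.99). In input VCX the counts were 7 of 10, 4 of 8 and 5 of 8. None of the 6 markers of oligodendrocyte precursors, of the 6 of oligodendrocytes, of the 6 of pericytes and smooth muscle or of the 5 tested neural progenitor markers was called in input PFC or VCX at day 2. In the IP the microglia and macrophage sum was 56.1 to 73.5 FPKM in PFC LPS and 36.0 to 40.0 FPKM in PFC PBS libraries, and 51.5 to 77.4 FPKM in VCX LPS and 30.1 to 33.7 FPKM in VCX PBS libraries, with 6 and 8 of 10 markers higher, and neutrophil and monocyte markers were higher for 7 and 8 of 8. The part of these cells in the changes of the cell cycle genes was not tested. At day 1 the microglia and macrophage sum was already higher in the input, at 341 to 395 FPKM in PFC LPS and 216 to 220 FPKM in PFC PBS libraries. Limma called no mitosis gene in the input at day 1. Limma-voom called Mki67 in PFC, where it was lower in LPS, with 13 to 57 reads in LPS and 35 to 89 reads in PBS libraries.

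At day 14 no member was called in IP or input of either area. Limma called 0 of 29 in IP PFC, 0 of 29 in IP VCX, 0 of 32 in input PFC and 0 of 32 in input VCX, where 0% of all genes were called, with 1, 1, 0 and 3 members at an unadjusted p under 0.05 and 0 by limma-voom in each. Top2a had 0.316, 0.380, 0.428 and 0.209 FPKM in input PFC LPS and 0.171, 0.240, 0.262 and 0.371 FPKM in PBS libraries (0.26, adjusted p = 0.987). In input VCX it had 0.209, 0.322, 0.254 and 0.410 FPKM in LPS and 0.605, 0.220, 0.503 and 0.149 FPKM in PBS libraries (-0.15, adjusted p = 0.943). The groups overlapped. Mki67 had 0.0715, 0.144, 0.170 and 0.108 FPKM in input PFC LPS and 0.131, 0.149, 0.109 and 0.0925 FPKM in PBS libraries, and overlapped likewise. Cdkn1a in IP PFC had 0.656, 1.00, 0.485 and 0.261 FPKM in LPS and 0.316, 2.35, 0.394 and 0.350 FPKM in PBS libraries (-0.10), the second PBS library being far above the rest. The input libraries of this day were the shallowest, with a median of 25.36 M reads and 4.21 M in the lowest. Whether small changes of the mitosis genes could be detected at this depth was not tested.
The change in time was tested as a difference of LPS effects, each day against its own PBS group. The days carry separate sequencing project numbers in the labels, so day and project cannot be told apart. In the input the LPS effect at day 2 was above that at day 1 for 12 of 33 members and below it for 0 (5.66% of all genes), with Top2a at 2.43 (SE 0.29, adjusted p = 4.44e-07), Mki67 at 1.61 (SE 0.21, adjusted p = 2.4e-06), Aurkb at 1.88, Tk1 at 1.71 and Cdk1 at 1.68 on the log2 scale. At day 14 it was below that at day 2 for 7 members and above it for 0 (3.05%), among them Bub1b (-1.85), Top2a (-1.66, SE 0.29, adjusted p = 0.00024) and Mki67 (-1.23). In the IP, 4 members were above and 2 below at day 2 against day 1 (15.1%), namely Cdk2 (0.52), E2f1 (0.46), Mcm3 (0.42) and Ccnd2 (0.36), and Rrm2 (-0.46) and Mcm4 (-0.32). None of these 6 is a mitosis gene. At day 14 against day 2, 4 were below and 0 above in the IP (5.4%): Bub1b (-1.23), Mki67 (-1.02), Tk1 (-0.94) and Mcm6 (-0.81). The day-2 effect enters both comparisons, which therefore share libraries.

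**Figure D5:**
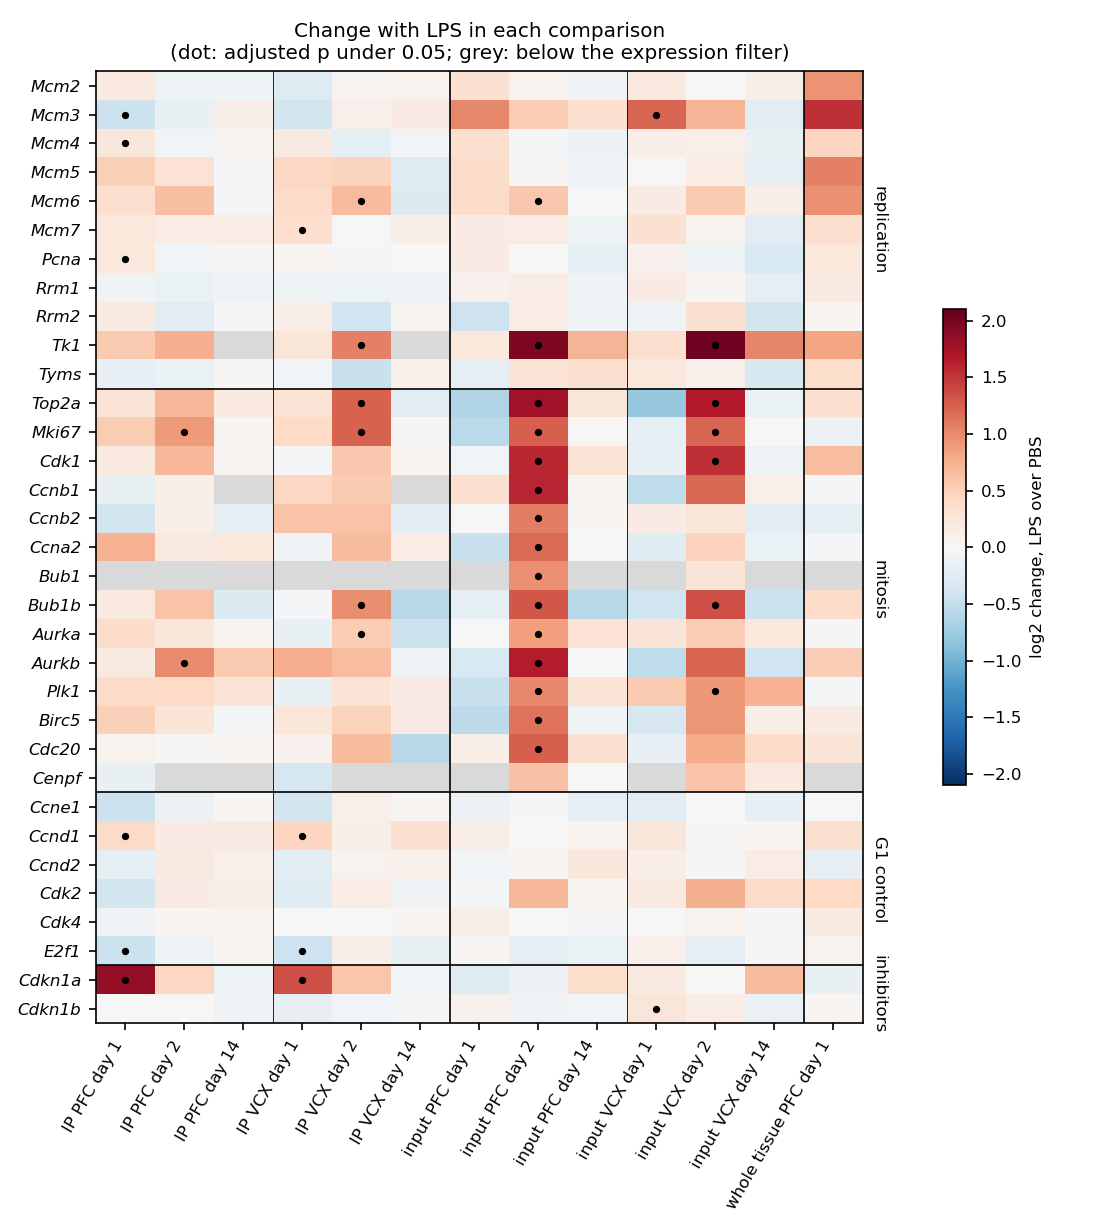
Log2 change of LPS against PBS for the 33 members, grouped by role, in each fraction, area and day and in whole tissue, with a dot for an adjusted p under 0.05 and grey for genes under the filter on low values. The dots of the mitosis genes stand in the day-2 columns, those of Cdkn1a, Ccnd1 and E2f1 in the IP at day 1, and the day-14 and whole-tissue columns carry none.

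The areas were compared in PBS animals and in their LPS effect. In PBS animals Ccnd1 was higher in PFC than in VCX on all 3 days in both fractions, by 0.87 (SE 0.085) at day 1, 0.79 at day 2 and 1.15 at day 14 in IP and by 0.34, 0.38 and 0.40 in input. E2f1 was higher in PFC input on all 3 days (0.62, 0.49 and 0.52). In all, 3 of 32, 1 of 31 and 2 of 29 tested members were called between areas in IP at days 1, 2 and 14 (6.99%, 6.95% and 4.32% of all genes). In input they were 2 of 31, 3 of 33 and 3 of 32 (12.1%, 14.9% and 7.06%). The others were Ccna2 (-1.03) and Cdkn1b (-0.32) in IP at day 1, Top2a (-1.06) in IP at day 14, Rrm1 (-0.31) in input at day 2 and Cdkn1b (-0.33) in input at day 14, all lower in PFC. The LPS effect itself was called as different between PFC and VCX by limma for 0 members in any fraction or day, as for 0 genes in all except 0.0119% in input at day 2, with at most 2 members at an unadjusted p under 0.05 and 0 by limma-voom.

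Across the 13 comparisons of LPS with PBS, limma on log2 FPKM with all libraries called 23 members at least once and 10 in none: Mcm2, Mcm5, Rrm1, Rrm2, Tyms, Cenpf, Ccne1, Ccnd2, Cdk2 and Cdk4. Of these 10, limma-voom called Mcm2 and Mcm5 in whole PFC, Mcm5 in IP PFC at day 1 and Cdk2 in input PFC at day 2, and limma called Mcm2 and Mcm5 in whole PFC without PBS replicate 3. Cdk4, with 30.9 to 35.7 FPKM in IP PFC day 1 LPS and 34.2 to 37.2 FPKM in PBS libraries, changed by no more than 0.19 in size in any comparison. Mcm5 in IP PFC at day 1 came near, with 0.601 to 0.760 FPKM in LPS and 0.330 to 0.560 FPKM in PBS libraries, without overlap (0.49, adjusted p = 0.056). Cdk2 at day 2 was higher by 0.70 in input PFC (adjusted p = 0.0877) and 0.75 in input VCX (adjusted p = 0.13), with 0.730 to 1.09 FPKM in PFC LPS and 0.448 to 0.634 FPKM in PFC PBS libraries.

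Further genes of the same pathways, from lists chosen with earlier results of these data known, are given beside the share of all genes called. Unlike the members, they were not screened for genes that reached the filter of 0.1 FPKM only through LPS libraries. Their counts and medians may include such genes. Of 57 tested other genes of mitosis, 18 rose and 0 fell in input PFC at day 2 (3.71% of all genes rose), with a median log2 change of 0.55 (-0.002 over all genes), led by Ube2c (2.01), Nusap1 (1.51), Kif20a (1.38) and Cep55 (1.36), which serve ubiquitination of cyclins, the spindle and cytokinesis. In input VCX 8 of 57 rose and 0 fell (median 0.43, 2.06% of all genes rose), led by Ube2c (1.74), Kif2c (1.32), Dlgap5 (1.25) and Ncaph (1.13). In the IP at day 2, 0 of the list rose and 1 fell of 51 in PFC (Pttg1, the securin gene, -0.55, with 7.84% of all genes called). In VCX 3 rose and 1 fell of 51 (Kif20a 0.77, Kif23 0.67, Cks1b 0.54 and Pttg1 -0.52, with 7.55% of all genes called). Of all tested members, 2 of 31 were called in IP PFC and 6 of 31 in IP VCX. The summed level of the list in LPS over PBS was 0.946 in IP PFC and 0.977 in IP VCX, where the 14 mitosis members had ratios of 1.48 and 2.1. The sum of the list moved little in the input as well, by 1.18 in PFC and 1.12 in VCX. There the members had ratios of 2.86 and 2.18, so a flat sum of the list is not particular to the IP. Of 35 tested other replication genes, 1 rose in input PFC at day 2 (Uhrf1, 0.91) and 0 in input VCX.
At day 1 the shares of other replication genes called in the input were at or below those of all genes (14.6% in PFC and 15.1% in VCX). They were 5 of 35 in input PFC (Pole 0.70, Pold1 0.55, Rpa2 0.50 and Prim1 0.43 lead) and 1 of 35 in input VCX (Prim1, 0.51), all of them higher. In whole PFC limma called 0 of 36 with all libraries and 11 of 36 higher, 0 lower, without PBS replicate 3 (8.81% of all genes called), led by Uhrf1 (1.93), Chaf1b (1.35), Gins2 (1.12) and Cdt1 (1.07). In the IP at day 1 (19.4% of all genes called in PFC and 20% in VCX), 2 rose and 2 fell of 33 in PFC (Rfc3 -0.68, Cdc45 0.61, Orc6 0.42 and Lig1 -0.37), and 7 rose and 1 fell in VCX (Asf1b 0.85, Gins1 0.55, Cdc45 0.54 and Pole 0.53 lead). The list of p53 targets, to which Cdkn1a would belong, rose for 5 of 20 in IP PFC (Fas 1.15, Ccng1 0.50, Phlda3 0.44 and Sesn1 0.40 lead) and 7 of 20 in IP VCX (Pmaip1 1.53, Fas 1.43, Perp 0.80 and Sesn1 0.63 lead), with 0 falling, where 19.4% and 20% of all genes were called in either direction. Ccnd3, the third cyclin D, rose with Ccnd1 in IP PFC (0.62) and IP VCX (0.55). Neutrophil and monocyte markers were higher in the IP at day 1 for 7 of 8 in PFC, where they summed to 121 to 183 FPKM in LPS and 10.3 to 38.2 FPKM in PBS libraries, and for 8 of 8 in VCX, and the part of such cells in the day-1 IP changes was not tested.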

How the data were processed

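PolyA RNA from HA-ribosome IP, input lysate and whole tissue was sequenced after TruSeq preparation, per the labels' protocols. The authors deposited 1 table per library of FPKM values per gene, and per the submitters' processing notes STAR, HTSeq and mm10 were used. Versions, strand setting and handling of near-identical copies (Pcna, Tyms and Ccnb1 have pseudogenes) are not given in the sources used here. Whole reads were recovered from the FPKM steps (100% of the values above 0 were whole within 0.05 reads, after the step of 3 libraries was corrected for a common factor), which gave the depth. 4 entries were left out because spreadsheet dates merged genes in them.

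Values were divided by TMM factors (30% and 5% trims), 0.1 FPKM was added and log2 taken. Genes at 0.1 FPKM or more in as many libraries as the smallest group were tested with limma 3.58.1 (trend and robust empirical Bayes, statmod 1.5.0, R 4.3.3), with sex as a covariate where both occurred and Benjamini-Hochberg adjustment over all genes tested. Folds on the log2(FPKM + 0.1) scale understate changes of low genes. LPS was compared with PBS per day, area and fraction from the 4 groups of a day and fraction, IP with input from the 8 groups of a day, and days from the 12 groups of a fraction, in 38 comparisons. Alternatives were 0.5 FPKM added, a filter of 0.5 FPKM or none, median-of-ratios factors, no further scaling, no sex covariate, only the 2 groups compared, leaving out each replicate number of LPS or of PBS in turn from all groups of a fit (1 library in whole tissue) and, chosen after seeing the data, limma-voom on the recovered reads in place of a planned quasi-likelihood count test. The fits were tested, without the sex covariate, on simulated data in which only genes with many reads were given a change. The simulation therefore does not cover members with few reads. Shares of all genes were computed for limma's adjusted p alone. Counts by unadjusted p, by limma-voom or of groups without overlap stand without one. Genes named are the members called or giving the level of a role, and up to 4 called genes per wider list and 3 per marker list, by size of change. The members and all lists were chosen with earlier results of these data known.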

Additional observations from a re-analysis of the deposited data

Results flagged for a closer look

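In 8 of 174 groups of 4 libraries (4.6%), 1 library lay far from the other 3, by Dixon's criterion for its gap to the nearest of them, and chance alone gives about 1 in 20. The mitosis genes summed to 4.051 FPKM in input VCX day 1 LPS replicate 2, above the 3.787 to 3.818 FPKM of the other 3 libraries. In IP PFC day 14 PBS replicate 4 they summed to 2.101 FPKM, where the other 3 had 1.512 to 1.6 FPKM. The G1 control genes summed to 117.6 FPKM in IP PFC day 2 PBS replicate 1, against 109.3 to 110.3 FPKM. E2f1 was 0.7453 FPKM in IP PFC day 1 LPS replicate 3, against 0.5324 to 0.5649 FPKM, and Mcm7 was 3.136 FPKM in IP VCX day 1 PBS replicate 3, against 2.701 to 2.768 FPKM. Whole-tissue PBS replicate 3 stood apart for Mcm2 (2.056 FPKM, against 1.322 to 1.444) and for Mcm3 (2.189 FPKM, against 0.6435 to 0.8189). Cdkn1a was 2.351 FPKM in IP PFC day 14 PBS replicate 2, where the other 3 PBS libraries had 0.3159 to 0.3941 FPKM.

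A difference between 2 LPS effects was called by limma for 37 pairs of a gene and a contrast. Between IP and input at day 1 the log2 difference was 0.85 for Birc5, 0.26 for Ccnd1, 1.716 for Cdkn1a, -0.24 for Cdkn1b, -0.52 for E2f1, -1.496 for Mcm3, 0.86 for Mki67 and 0.97 for Top2a. Day 2 minus day 1 in the IP gave 0.36 for Ccnd2, 0.52 for Cdk2, 0.456 for E2f1, 0.42 for Mcm3, -0.32 for Mcm4 and -0.46 for Rrm2. In the input the same contrast gave 1.875 for Aurkb, 1.46 for Birc5, 1.648 for Bub1b, 1.22 for Ccna2, 1.496 for Ccnb1, 1.05 for Cdc20, 1.68 for Cdk1, 1.21 for Cenpf, 1.61 for Mki67, 0.93 for Plk1, 1.705 for Tk1 and 2.43 for Top2a. Day 14 minus day 2 gave -1.23 for Bub1b, -0.81 for Mcm6, -1.02 for Mki67 and -0.94 for Tk1 in the IP. It gave -1.645 for Aurkb, -0.98 for Birc5, -1.85 for Bub1b, -1.33 for Ccnb1, -1.48 for Cdk1, -1.23 for Mki67 and -1.66 for Top2a in the input. The contrasts of days share the day-2 libraries.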

How the results depend on the processing

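Of 78 called changes of single members, 33 were called under every alternative that could be fitted and 0 changed sign. With limma-voom 67 stayed called and 11 did not, with only the 2 groups compared 27 and 14, with 0.5 FPKM added 73 and 5, and with a filter of 0.5 FPKM 57 and 3. The other settings (median-of-ratios factors, no filter, no further scaling, no sex covariate) lost 2 to 4. Counts of members called by LPS against PBS moved as follows. With only the 2 groups compared they were 3 instead of 6 in IP PFC day 1, 2 instead of 4 in IP VCX day 1, 0 instead of 2 in IP PFC day 2 and 2 instead of 6 in input VCX day 2. In IP PFC day 2 they were 0 with 0.5 FPKM added and with the 0.5 FPKM filter, and 1 without the sex covariate. That filter left 2 instead of 6 in IP VCX day 2. In input PFC day 1 the count of 0 became 2 with that filter, 1 without a filter, 2 without scaling, 1 without the sex covariate and 2 with limma-voom, and whole PFC went to 5 with limma-voom. For PFC against VCX in PBS IP, the 1 call at day 2 became 2 with the 0.5 FPKM filter, without scaling or with limma-voom, and the 2 at day 14 became 1 with that filter. For the LPS effect in IP minus input at day 2, the 0 became 2 with 0.5 FPKM added, 2 with median-of-ratios factors, 4 without scaling and 1 with limma-voom. For day 14 minus day 2 in IP, 4 became 2 with the filter or limma-voom. The causes were not tested.

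With replicate n of LPS or of PBS left out of all groups of a fit at once (1 library in whole PFC, several elsewhere), members called by LPS against PBS ranged from 2 to 6 in IP PFC day 1 (6 with all), 2 to 5 in IP VCX day 1 (4), 0 to 4 in IP PFC day 2 (2), 1 to 5 in IP VCX day 2 (6), 0 to 2 in input PFC day 1 (0), 1 to 3 in input VCX day 1 (2), 10 to 14 in input PFC day 2 (15), 4 to 5 in input VCX day 2 (6) and 0 to 9 in whole PFC (0). PFC against VCX gave 1 to 4, 1 to 1 and 1 to 2 in IP and 1 to 2, 1 to 3 and 0 to 3 in input at days 1, 2 and 14. IP against input gave 22 to 26, 27 to 28 and 24 to 26 in LPS and 23 to 24, 20 to 24 and 21 to 23 in PBS animals on those days. LPS effects gave 4 to 8 (day 1) and 0 to 1 (day 2) in IP minus input, 2 to 5 for either contrast of days in IP, and 9 to 12 (day 2 minus day 1) and 4 to 9 (day 14 minus day 2) in input. No paired analysis was possible because the labels carry no replicate numbers. The planned quasi-likelihood count test was not run. Depth limits the lowest genes: the median PBS IP library held 2 reads of Tk1 and 4 of Bub1, but 67 of Top2a, and intervals of single values were not computed.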

Other observations

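Other genes of G1 control moved in small numbers at day 1. In IP PFC 2 of 16 rose (Ccnd3 0.62 and Rbl2 0.45 on the log2 scale) and 1 fell (Rb1, -0.30), where 19.4% of all genes were called. In input VCX 4 of 16 rose and 0 fell, with Rbl1 at 0.53, Cdk6, the other kinase partner of cyclin D, at 0.52 and Ccnd3 at 0.36, where 15.1% of all genes were called. Of the 4 other inhibitors of cyclin-dependent kinases that were tested, Cdkn2d rose in IP PFC (0.45) and Cdkn1c fell in input VCX (-0.39) at day 1, each 1 of 4. Among the other replication genes in IP VCX at day 2, 0 rose and 2 fell of 33, where 7.55% of all genes were called. At day 14, when limma called 0% of all genes in IP and in input of both areas, the wider lists held no called gene either.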
